A study of Mus musculus with 12 samples.

Results

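Mitosis and cytokinesis genes were followed in the left atrium (LA) of mice with inducible cardiomyocyte Notch activation. The set held 43 genes, named from their known roles in entry into mitosis, spindle assembly, chromosome segregation and the final separation of daughter cells, and all 43 were found among the 54658 gene names of the expression table. Levels were measured by RNA-sequencing of whole LA, 1 library per mouse. The 6 iNICD mice carried amHC-rtTA and TetO-NICD, so that doxycycline turned on the Notch1 intracellular domain (NICD) in cardiomyocytes. The 6 control mice were littermates with amHC-rtTA alone. All 12 mice were of mixed background. They were 2 to 3 months old when doxycycline chow began, received it for 3 weeks and were sampled with no washout. The controls comprised 4 females (controls 1 to 4) and 2 males (controls 5 and 6), and the iNICD group 3 females (iNICD 1 to 3) and 3 males (iNICD 4 to 6). The αMHC promoter drives rtTA, which turns on TetO-NICD in cardiomyocytes, whereas the RNA came from all cells of the chamber. In such bulk tissue, fewer cells of a type and less RNA per cell cannot be told apart.

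A dividing cell enters mitosis when Cdk1, bound to cyclin A or cyclin B, becomes active. Aurora and Polo-like kinases then build the spindle, kinetochore proteins couple chromosomes to microtubules and hold the checkpoint, the anaphase-promoting complex degrades the cyclins, and the centralspindlin proteins direct the cleavage furrow. Most adult cardiomyocytes have left the cell cycle and some copy their DNA without dividing, while the fibroblasts, endothelial cells and immune cells of the heart can still divide. Many of these genes are switched on together late in the cycle through a cell cycle homology region (CHR) and CCAAT boxes near the transcription start. MuvB complexes, joined by B-Myb and FoxM1 in dividing cells and by E2F4 and pocket proteins in resting cells, are known to bind the CHR, and NF-Y the CCAAT box.

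To show what these genes share outside their expression, the promoters were read from RefSeq (GRCm38.p6), as windows of 250 bases before and 50 bases after the annotated start. The search covered the CHR letters TTTGAA and TTTAAA and the letters CCAAT on both strands, and a match was counted whether or not it overlapped another motif. A window was found for 38 of the 43 genes, and 3 of those had more than 1 window, which gave 41 windows. The stretches from 120 bases before to 40 bases after the start are printed below, on the coding strand of each gene, with motif letters in capitals (ATTGG and TTCAAA are the matches on the other strand). The first 6 belong to the genes with the lowest p in the comparison of iNICD with control LA for which a window was found. The last 2 belong to the genes with a window whose levels differed least between the groups.
Cenpf, chr1:189688047-189688206, minus strand: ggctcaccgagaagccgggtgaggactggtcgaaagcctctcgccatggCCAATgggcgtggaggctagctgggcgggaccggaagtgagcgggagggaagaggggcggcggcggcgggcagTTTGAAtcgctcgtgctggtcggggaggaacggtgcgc
Nek2, chr1:191821353-191821512, plus strand: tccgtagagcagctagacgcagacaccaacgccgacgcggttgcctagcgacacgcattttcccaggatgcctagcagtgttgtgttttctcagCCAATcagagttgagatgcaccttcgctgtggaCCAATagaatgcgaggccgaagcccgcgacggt
Cdca3, chr6:124830056-124830215, plus strand: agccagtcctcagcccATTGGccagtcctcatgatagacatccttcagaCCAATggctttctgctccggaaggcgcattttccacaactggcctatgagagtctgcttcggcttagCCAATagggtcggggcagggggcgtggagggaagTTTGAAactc
Plk1, chr7:122159315-122159474, plus strand: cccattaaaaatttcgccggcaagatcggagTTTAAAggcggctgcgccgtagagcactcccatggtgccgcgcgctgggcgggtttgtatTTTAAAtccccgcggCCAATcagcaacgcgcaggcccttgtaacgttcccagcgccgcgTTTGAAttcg
Bub1, chr2:127831820-127831979, minus strand: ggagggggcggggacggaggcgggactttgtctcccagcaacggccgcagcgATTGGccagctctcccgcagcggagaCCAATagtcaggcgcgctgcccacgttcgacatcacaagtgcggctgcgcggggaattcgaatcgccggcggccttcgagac
Ckap2, chr8:22185780-22185939, minus strand: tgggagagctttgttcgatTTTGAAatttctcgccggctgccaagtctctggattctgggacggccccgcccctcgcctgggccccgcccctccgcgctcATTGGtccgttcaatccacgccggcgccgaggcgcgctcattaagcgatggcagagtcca
Cenpa, chr5:30666766-30666925, plus strand: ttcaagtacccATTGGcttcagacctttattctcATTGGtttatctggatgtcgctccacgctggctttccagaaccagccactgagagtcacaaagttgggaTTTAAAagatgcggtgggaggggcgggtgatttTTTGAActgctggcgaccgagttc
Cks1b, chr3:89418252-89418411, minus strand: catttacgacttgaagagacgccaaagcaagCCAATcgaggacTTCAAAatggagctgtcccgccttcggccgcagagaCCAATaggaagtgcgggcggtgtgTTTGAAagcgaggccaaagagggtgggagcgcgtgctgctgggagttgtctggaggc
Both classes of gene held these letters. Cenpf, Cdca3 and Plk1 had TTTGAA just after the start, at +3, +31 and +31. Nek2 and Bub1 had 2 CCAAT boxes each in the printed stretch and no CHR letters. Cenpa, whose level hardly differed between the groups, had TTTGAA at +17 and TTTAAA at -17, and Cks1b had TTTGAA on both strands.

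Across all 41 windows, TTTGAA was present in 31, or 75.6%, against 12.2% of the 15748 windows of the other tested genes and 17.9% of all 32851 windows. The TTTAAA form was present in 26.8% of the members' windows, against 9.54% and 13.2%. At least 1 CCAAT box was found in 82.9%, against 36.9% and 37.4%, and at least 2 in 56.1%, against 13.1% and 11.7%. TTTGAA and CCAAT occurred in the same window for 65.9% of members' windows, compared with 4.75% of the windows of other tested genes. These shares describe letters in a fixed window, and binding of a factor was not measured. For 26 of the 41 windows, the first bases after the start were also found in a transcript of the same gene in GENCODE M21.

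**Figure D1:**
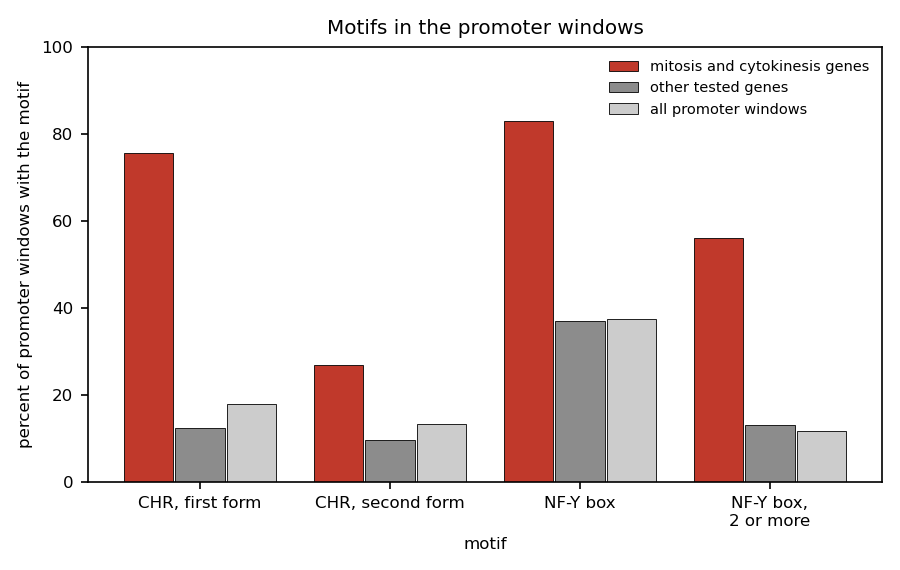
Percent of promoter windows (250 bases before to 50 after the start) that hold each motif, for 41 windows of mitosis and cytokinesis genes (red), 15748 windows of other tested genes (dark grey) and all 32851 windows (light grey). The first CHR form is TTTGAA, found in 75.6%, 12.2% and 17.9% of the windows, and the second is TTTAAA. The NF-Y box is CCAAT, found in 82.9%, 36.9% and 37.4%.

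The libraries held 21432632 to 27182038 reads on genes, and the ranges of the 2 groups overlapped. Levels below are read counts scaled to a common library total after trimmed-mean (TMM) adjustment (CPM). Notch1 reads, which include those from the transgene, were at 108 to 130 CPM in the controls and 2968 to 4051 CPM in the iNICD LA. The library of control 5 had the lowest TMM factor, 0.843, against 0.975 to 1.06 in the other 11. The atrial genes of the marker list were detected in every group, and 4 of 5 were lower in iNICD LA by the test used below, with a median log2 fold change of -0.76 over the 5. Of the ventricular genes, Irx4 had no read in any library.

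The question was whether the mitotic program differed between iNICD and control LA. With edgeR's quasi-likelihood test, adjusted over the 17944 genes that averaged 0.1 CPM or more (24 of the members also exceeded 1 CPM in at least 6 libraries), no member passed an adjusted p of 0.05 in either direction, whereas 406 of all tested genes were higher (2.26%) and 180 lower. Of the members, 42 were tested. Cks2, a small Cdk1-binding subunit, fell below the filter with 19 reads in all 12 libraries, at 0 to 0.0823 CPM in the controls and 0 to 0.167 CPM in the iNICD LA. The lowest adjusted p was 0.0594, for Cenpf, and the highest 0.936, for Cenpa. All 42 had a positive log2 fold change, against 48.8% of all tested genes, with a median of 1.39, against -0.01 over all. At an unadjusted p under 0.05, 33 of the 42 were higher and 0 lower, against 8.37% of all tested genes higher. That count was 12 of 42 without iNICD 1 (7.2% of all tested genes), 16 without iNICD 3 (7.55%), and 20 without control 3 (8.19%) or control 6 (8.69%). In the males alone it was 2 of 42, against 3.54%. With the replicate number of the titles or of the descriptions as a block in the fit, the count was 13 of 42, against 8.68% and 8.7%.

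The fold changes rested on a pair of libraries. In iNICD 1 and iNICD 3, the median log2 ratio of the 42 members to the control mean was 2.53 and 2.28. It was 0.44, 0.41, 0.14 and -0.35 in iNICD 2, 4, 5 and 6, and the 6 controls ran from -0.49 to 0.43. Only iNICD 1 and 3 lay far above the highest control. iNICD 4, 5 and 6 lay inside the control range and iNICD 2 at its upper edge.

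Summed over the 43 genes, iNICD 1 held 411.9 CPM and iNICD 3 held 305 CPM. The other 4 iNICD libraries held 112.1 to 142 CPM and the controls 114.5 to 137.1 CPM. Without Cenpa and Smc4, which made up most of the sum in the controls, the values were 295.1 and 225.7 CPM in iNICD 1 and 3, 39.54 to 66.85 CPM in the other iNICD libraries, and 38.04 to 63.16 CPM in the controls. Cenpa and Smc4 were the 2 members of the highest level.

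For 40 of the 42 tested members, iNICD 1 and iNICD 3 were the 2 highest of the 12 libraries. Over all tested genes this held for 2.48%. The count was made after the values were seen. The exceptions were Cenpa and Smc4. Every iNICD library exceeded every control for 0 members, against 2.1% of all tested genes. The number of members above all 6 controls was 42 in iNICD 1, 17 in iNICD 2, 40 in iNICD 3, 12 in iNICD 4, 6 in iNICD 5 and 1 in iNICD 6, while the iNICD libraries had 13.2% to 19.4% of all tested genes above all controls.

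Relative to the median control, the 42 members lay at 1.31-fold (Cenpa) to 23.8-fold (Hmmr) in iNICD 1, with a median of 6.56-fold, and 28 of them at 5-fold or more. In iNICD 3, they lay at 0.842-fold (Cenpa) to 14.9-fold (Ckap2), with a median of 5.37-fold, and 23 at 5-fold or more. None of the members reached 5-fold in another library. The median was 1.25-fold in iNICD 2, 1.28-fold in iNICD 4, 1.04-fold in iNICD 5 and 0.803-fold in iNICD 6.

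**Figure D2:**
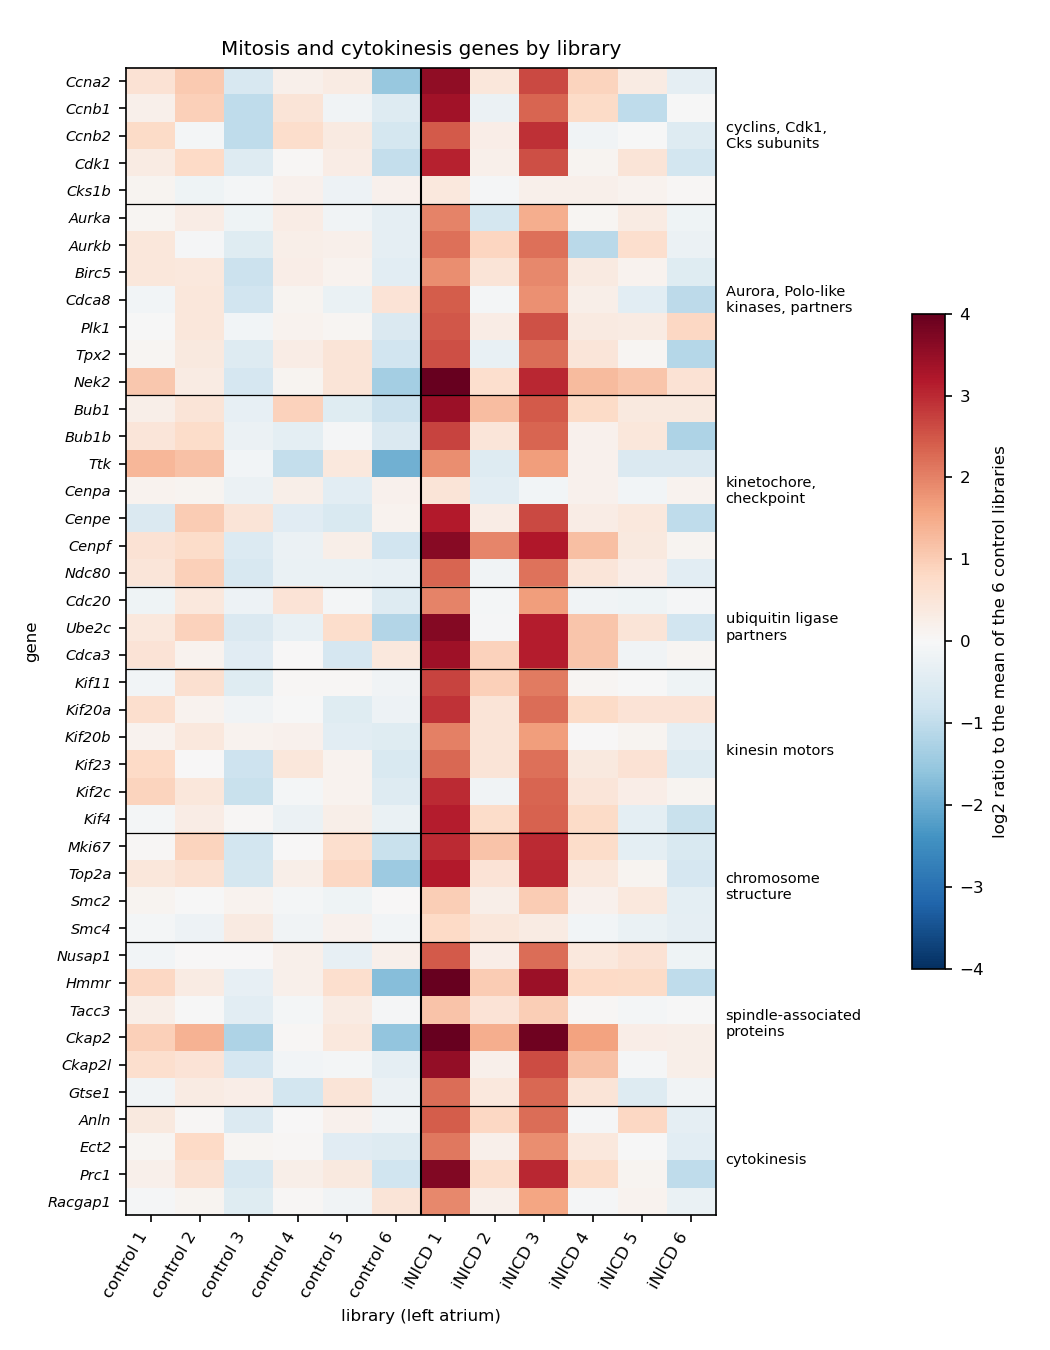
Log2 ratio of each of the 42 tested members (y axis, grouped by role) to the mean of the 6 control libraries, in each of the 12 LA libraries (x axis, controls left of the line). Colour runs from blue (lower than the control mean) through white to red (higher). The columns of iNICD 1 and iNICD 3, with medians of 2.53 and 2.28, are red for all but a few genes, and the other iNICD columns have medians of -0.35 to 0.44.

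Among the cyclins, Cdk1 and its Cks subunits, 5 of 6 genes were tested and their median log2 fold change was 1.60, with 4 at an unadjusted p under 0.05. Ccna2, Ccnb1, Ccnb2 and Cdk1 itself, the kinase that drives entry into mitosis, had log2 fold changes of 1.46 to 1.85 and adjusted p of 0.2 to 0.316 by edgeR. Cks1b, which binds Cdk1 and also serves the Skp2 ubiquitin ligase, had the highest level of the group, at 3.83 to 5.02 CPM in the controls (median 4.54) and 4.32 to 6.04 CPM in the iNICD LA (median 5.00). The Cks1b groups overlapped, at a log2 fold change of 0.16 (95% interval -0.10 to 0.43). In Cdk1, iNICD 1 and 3 stood at 7.89 and 5.68 CPM over a highest control of 1.57 CPM, and the other iNICD libraries lay at 0.492 to 1.29 CPM.

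Among the Aurora and Polo-like kinases and their partners, all 7 genes had a positive fold change, with a median log2 value of 1.23, and 4 had an unadjusted p under 0.05. Nek2, a kinase that splits the centrosomes, ranged from 0.0461 to 0.617 CPM in the controls (median 0.302) and from 0.410 to 5.31 CPM in the iNICD LA (median 0.670). This rested on 1 to 15 reads per control library and on 132 and 71 reads in iNICD 1 and 3. The log2 fold change of Nek2 was 2.48 ± 0.73 (SE), with an adjusted p of 0.0937. The groups overlapped, since 4 of 6 iNICD libraries exceeded all controls.

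Plk1, the Polo-like kinase of mitotic entry and spindle assembly, was at 0.276 to 0.657 CPM in the controls (median 0.466) and 0.573 to 3.02 CPM in the iNICD LA (median 0.732). Its high libraries were iNICD 3 and iNICD 1, followed by iNICD 6 at 0.861 CPM, and 3 of 6 iNICD libraries exceeded all controls. Its log2 fold change was 1.60 ± 0.49, with an adjusted p of 0.110. Tpx2, the Aurora A activator on the spindle, was the gene of the highest level in this group, with 0.829 to 2.15 CPM in the controls (median 1.69) and 0.615 to 9.26 CPM in the iNICD LA (median 1.83). Only iNICD 1 and 3 exceeded the Tpx2 controls. Aurkb, the kinase of the chromosomal passenger complex, had the lowest mean over all 12 libraries (Nek2 and Plk1 were lower in the controls), with 0.331 to 0.700 CPM in the controls (median 0.524) and 0.188 to 2.55 CPM in the iNICD LA (median 0.902). For Aurkb, iNICD 4 was the lowest of all 12 libraries and 4 others of the group lay above every control. Aurka, Birc5 and Cdca8, the latter encoding Borealin of the passenger complex, had log2 fold changes of 0.82, 0.97 and 1.03.

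Among the kinetochore and spindle checkpoint genes, all 7 fold changes were positive, with a median log2 value of 1.39 and 4 at an unadjusted p under 0.05. Cenpf, a large kinetochore protein made in late G2, had the lowest p of all members. It was at 0.276 to 0.913 CPM in the controls (median 0.528) and 0.574 to 7.49 CPM in the iNICD LA (median 1.78). The order among iNICD libraries was 7.49 (iNICD 1), 5.42 (iNICD 3), 2.25 (iNICD 2), 1.32 (iNICD 4), 0.709 (iNICD 5) and 0.574 CPM (iNICD 6), so that 4 of 6 lay above all controls and the groups overlapped. Its log2 fold change was 2.37 ± 0.63, and its TTTGAA lies 3 bases from the start in the window printed above.

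Bub1, a checkpoint kinase, was at 0.0921 to 0.512 CPM in the controls (median 0.227) and 0.328 to 3.30 CPM in the iNICD LA (median 0.556). With 2 to 13 reads per control library, Bub1 was among the least deeply covered members. Its log2 fold change was 2.06 ± 0.64, with an adjusted p of 0.115. Cenpa, the histone H3 variant of centromeres, was the member of the highest level. It was at 32.8 to 51.1 CPM in the controls (median 48.0) and 32.7 to 62.8 CPM in the iNICD LA (median 44.4), at a log2 fold change of 0.04 (95% interval -0.29 to 0.37). Only iNICD 1 exceeded the Cenpa controls, and iNICD 3 stood at 40.4 CPM, inside their range. Ttk, the Mps1 checkpoint kinase, had the lowest mean of the group over all 12 libraries (Bub1 was lower in the controls), at 0 to 0.700 CPM in the controls (median 0.271) and 0.123 to 1.05 CPM in the iNICD LA (median 0.198). Its iNICD median lay below that of the controls although its fitted log2 fold change was 0.41 ± 0.74, because iNICD 1 and 3 were again the 2 highest libraries. Bub1b, Cenpe and Ndc80 had log2 fold changes of 1.39, 1.72 and 1.25.

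**Figure D3:**
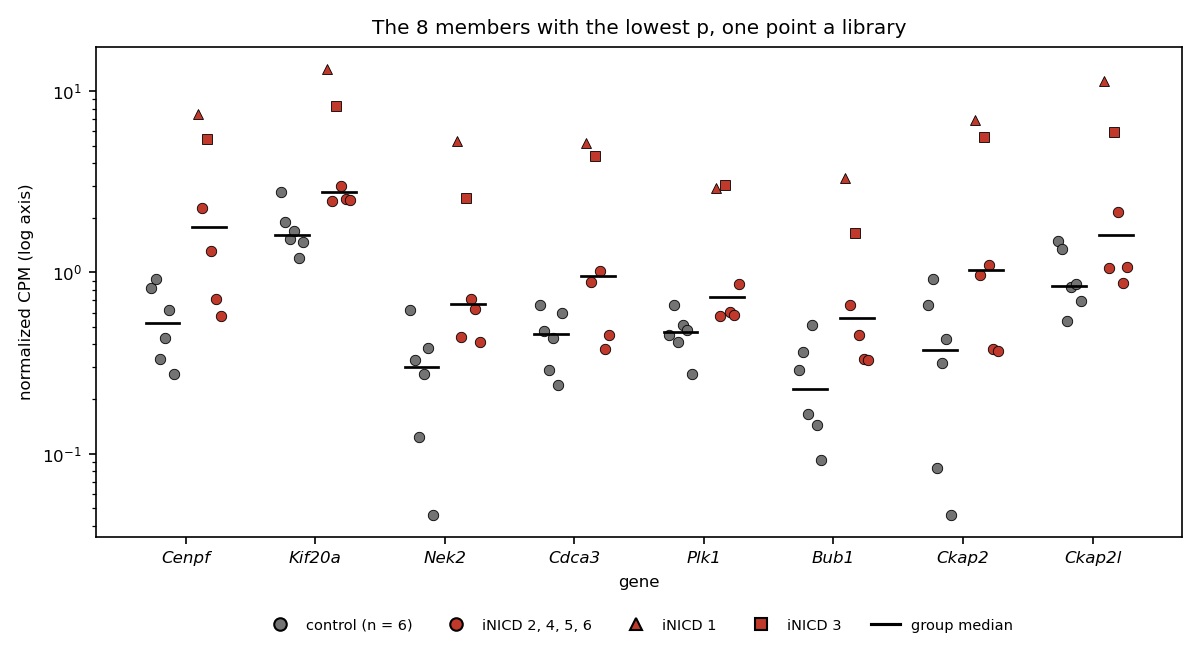
Normalized CPM (log axis) of the 8 members with the lowest p in each of the 6 control (grey) and 6 iNICD (red) LA libraries, with black lines at the group medians. In all 8 genes the triangle (iNICD 1) and the square (iNICD 3) lie above every other library, and the remaining iNICD points overlap the controls, as for Cenpf at 0.574 and 0.709 CPM against a highest control of 0.913.

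The next role covered partners of the ubiquitin ligases that act in mitosis. Cdc20, the activator of the anaphase-promoting complex, was at 1.11 to 2.403 CPM in the controls (median 1.49) and 1.42 to 6.72 CPM in the iNICD LA (median 1.55). Its iNICD and control medians nearly coincided, with iNICD 1 and 3 alone above the controls, and its log2 fold change was 0.84 ± 0.43. Cdca3, which triggers mitotic entry through the degradation of Wee1, was at 0.239 to 0.659 CPM in the controls (median 0.454) and 0.375 to 5.19 CPM in the iNICD LA (median 0.949). In Cdca3, 4 of 6 iNICD libraries exceeded all controls, and its log2 fold change was 2.18 ± 0.65 with an adjusted p of 0.1004. Ube2c, the E2 enzyme of the complex, had a log2 fold change of 2.14, and 22.8% of its exon bases are shared with Tnnc2 on the opposite strand.

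All 6 kinesin motors had an unadjusted p under 0.05 and a median log2 fold change of 1.48. Kif20a, a motor of the central spindle, had the highest level of the 6, at 1.20 to 2.76 CPM in the controls (median 1.61) and 2.47 to 13.2 CPM in the iNICD LA (median 2.76). The groups came close to separating, because 5 of the 6 controls lay at 1.90 CPM or lower, below every iNICD library, and control 1 reached 2.76 CPM. Its log2 fold change was 1.59 ± 0.45, with an adjusted p of 0.0804. Of its 4338 exon bases in GENCODE M21, 29.3% are shared with Cdc23 on the opposite strand. The expression table lists Kif20a at 3796 bases, so the counted gene model differs from that one. Kif2c, the microtubule-depolymerizing kinesin of centromeres, had the lowest level, at 0.124 to 0.617 CPM in the controls (median 0.305) and 0.265 to 2.90 CPM in the iNICD LA (median 0.413). Apart from iNICD 1 and 3, the Kif2c libraries of both groups overlapped. Kif11, the motor that separates the spindle poles, Kif23, the motor of centralspindlin, Kif4 and Kif20b had log2 fold changes of 0.96 to 1.76.

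The 4 chromosome structure genes had a median log2 fold change of 1.09, and 3 had an unadjusted p under 0.05. Smc4, a condensin core subunit, was at 26.7 to 39.3 CPM in the controls (median 29.1) and 24.1 to 54.0 CPM in the iNICD LA (median 33.6), at a log2 fold change of 0.19 (95% interval -0.21 to 0.60). For Smc4, the 2 highest libraries were iNICD 1 and iNICD 2, and the groups overlapped. Its condensin partner Smc2 was at 5.07 to 6.21 CPM in the controls and 4.31 to 11.5 CPM in the iNICD LA, and 5 of 6 iNICD libraries exceeded all controls. Mki67, the proliferation marker that coats mitotic chromosomes, was at 1.11 to 3.98 CPM in the controls (median 2.15) and 1.35 to 17.4 CPM in the iNICD LA (median 4.15). iNICD 1 and 3 were at 17.4 and 17.3 CPM, iNICD 2 at 4.76 CPM was the only other library above the controls, and the log2 fold change of Mki67 was 1.71 ± 0.63 with an adjusted p of 0.193. In Top2a, the topoisomerase that untangles sister chromatids, iNICD 1 and 3 stood at 24.7 and 22.3 CPM over a highest control of 4.83 CPM.

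All 6 spindle-associated genes had an unadjusted p under 0.05, with a median log2 fold change of 1.67. Ckap2, a microtubule-stabilizing protein, was at 0.0461 to 0.913 CPM in the controls (median 0.373) and 0.369 to 6.89 CPM in the iNICD LA (median 1.03). In Ckap2, 4 of 6 iNICD libraries exceeded all controls, and its log2 fold change was 2.61 ± 0.83 with an adjusted p of 0.126. Its paralog Ckap2l was at 0.538 to 1.48 CPM in the controls (median 0.844) and 0.876 to 11.3 CPM in the iNICD LA (median 1.61). For Ckap2l, iNICD 4 at 2.15 CPM was the only library besides iNICD 1 and 3 above the controls, and its log2 fold change was 1.95 ± 0.63 with an adjusted p of 0.130. Hmmr, a hyaluronan receptor that also acts on spindle poles, had the largest fold change of all tested members, with a log2 value of 2.78 ± 0.90.

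Tacc3, a clathrin-bound spindle protein, had the highest level of this role, at 2.57 to 4.36 CPM in the controls (median 3.40) and 3.29 to 7.73 CPM in the iNICD LA (median 4.34). For Tacc3, iNICD 2 also lay above all controls, at 5.07 CPM. Gtse1, a microtubule-binding protein of G2 and S phase, had the lowest mean over all 12 libraries (Hmmr and Ckap2 were lower in the controls), at 0.276 to 0.766 CPM in the controls (median 0.537) and 0.334 to 2.84 CPM in the iNICD LA (median 0.729). The Gtse1 libraries other than iNICD 1 and 3 lay within the control range. Nusap1, which bundles spindle microtubules, had a log2 fold change of 1.38, and 5 of its 6 iNICD libraries exceeded all controls.

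All 4 cytokinesis genes had an unadjusted p under 0.05, with a median log2 fold change of 1.17. Anln, the anillin scaffold of the contractile ring, was at 1.45 to 2.84 CPM in the controls (median 2.20) and 1.64 to 11.8 CPM in the iNICD LA (median 3.84). For Anln, 4 of 6 iNICD libraries exceeded all controls, iNICD 2 and 5 at 3.84 CPM each. Ect2, the exchange factor that activates RhoA at the furrow, had the lowest level, at 0.691 to 1.83 CPM in the controls (median 1.07) and 0.738 to 4.63 CPM in the iNICD LA (median 1.29). Only iNICD 1 and 3 exceeded the Ect2 controls. Prc1, the bundler of the central spindle, and Racgap1, the GTPase-activating subunit of centralspindlin, had log2 fold changes of 2.08 and 0.84.

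Per kilobase of gene length, as listed in the table, the levels of the members in control LA spanned 7.58 CPM per kb for Cenpa, 5.98 for Smc4 and 3.98 for Cks1b down to 0.0367 CPM per kb for Cenpf. These 3 genes of high level had the log2 fold changes nearest to 0 of all tested members. The control mean was below 1 CPM for 24 of the 43 genes. Levels therefore rested on few reads, as in the 6 to 25 reads of Cenpf per control library.

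Tested one gene at a time, 8 of the 42 members had a two-sided p under 0.05 in an exact permutation test of mean CPM over all 924 splits of 6 against 6 libraries, which cannot go below 0.00216. All 8 were higher in iNICD LA, and 8.45% of all tested genes were higher at that threshold in the same test. The exact permutation p was 0.0217 for Cenpf, 0.00866 for Kif20a, 0.013 for Nek2, 0.0433 for Cdca3, 0.0108 for Plk1 and 0.0303 for Bub1. For Ckap2 and Ckap2l, the exact permutation p was 0.0519 and 0.0779. These p-values were not adjusted for the number of genes.

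Leaving out iNICD 1 and iNICD 3, a choice made after the values were seen, the median log2 fold change of the 42 members went from 1.39 to 0.12. In that fit of 4 iNICD against 6 control libraries, 28 members had a positive and 14 a negative value, from -0.99 (Ttk) to 1.08 (Cenpf), against 47.9% positive over all genes. The lowest adjusted p was 0.345, for Kif20a. Cenpf (log2 fold change 1.08 ± 0.45) and Kif20a (0.57 ± 0.23) had an unadjusted p under 0.05 in that fit, against 6.36% of all genes higher at that level. By role, all 6 spindle-associated genes and all 6 kinesins kept a positive value, with medians of 0.36 and 0.22. The kinetochore genes (3 of 7 positive) and the cyclins with Cdk1 (2 of 5 positive) had medians of -0.04 and -0.02.

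**Figure D4:**
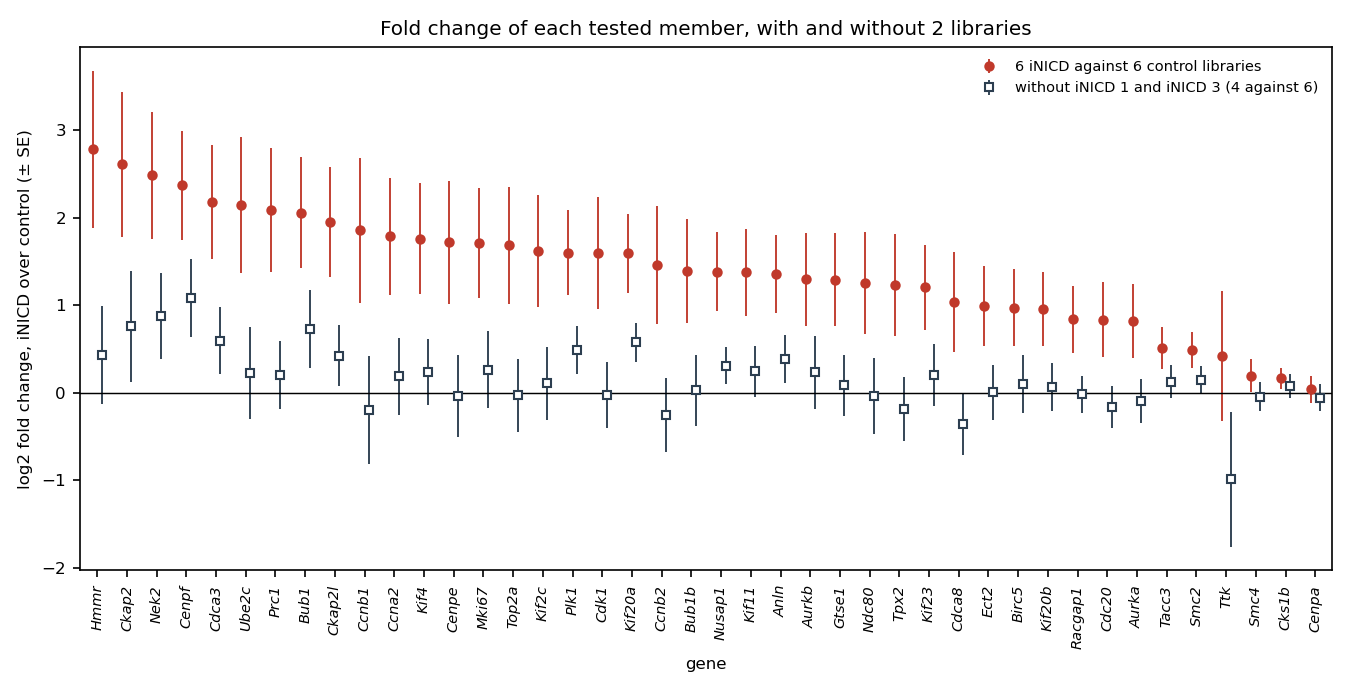
Log2 fold change of iNICD over control LA (± SE) for each of the 42 tested members, ordered by the value with all 12 libraries (red circles), and the same without iNICD 1 and iNICD 3 (open squares). The median is 1.39 for the circles and 0.12 for the squares, and in the second fit the values run from -0.99 (Ttk) to 1.08 (Cenpf).

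Counts of called members differed between tests. DESeq2 called 11 members higher (Anln, Bub1, Cdca3, Cenpf, Ckap2, Ckap2l, Hmmr, Kif20a, Nek2, Nusap1 and Plk1), against 3.93% of all genes it gave an adjusted p. The exact test of edgeR called 9 of these, without Anln and Nusap1, against 3.06% of all tested genes. Neither tool called a member lower. With sex as a covariate, the quasi-likelihood test called 6 members higher (Bub1, Cenpf, Ckap2, Kif20a, Nek2 and Plk1), against 2.54% of all tested genes.

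The 2 libraries with high levels came from female iNICD mice. In a fit of the 3 iNICD and 4 control females alone, 7 members were called higher (Anln, Aurkb, Cdca3, Cenpf, Kif11, Kif4 and Mki67), against 1.55% of all genes, and the median log2 fold change was 2.02. In the males alone, 3 against 2, no member was called, against 0.0451% of all genes (8 of 17742), and the median log2 fold change was 0.28. The difference between the sexes was tested as an interaction in edgeR, which gave no member under an adjusted p of 0.05, with a lowest value of 0.932, and no gene at all. At an unadjusted p under 0.05, 16 members and 717 of all 17944 tested genes had an interaction. Most members were highest in the same 2 female mice, iNICD 1 and iNICD 3, so the 16 are not independent results. The third female, iNICD 2, had a median log2 ratio of 0.44, near that of iNICD 4, a male.

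Other measures of iNICD 1 and 3 were within or near the ranges of the other libraries. They held 23927211 and 26967468 reads on genes, at TMM factors of 1.04 and 1.02. Their Notch1 levels, 3214 and 3236 CPM, were in the middle of the iNICD range. Reads from mitochondrial genes made up 10.7% and 9.6% of the total, against 10.3% to 11.2% in the other iNICD LA and 7.52% to 9.59% in the controls.

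Marker lists of cell types were summed in each library. None of the 6 macrophage markers was called, with sums of 260.9 to 362 CPM in the controls, 312.1 CPM in iNICD 1, 401.3 CPM in iNICD 3 and 273.8 to 389.5 CPM in the other iNICD libraries. None of the 6 fibroblast markers was called, with 2136 to 2822 CPM in the controls, 2473 CPM in iNICD 1, 2923 CPM in iNICD 3 and 2114 to 3034 CPM in the other iNICD libraries. None of the 5 endothelial markers was called, with 656.5 to 982.7 CPM in the controls, 662.6 CPM in iNICD 1, 747.5 CPM in iNICD 3 and 621.9 to 724 CPM in the other iNICD libraries. The 6 lymphocyte markers together held 2.58 to 4.59 CPM in the controls, 4.03 CPM in iNICD 1, 5.42 CPM in iNICD 3 and 1.6 to 4.89 CPM in the other iNICD libraries, and the 5 neutrophil markers held 1.33 to 2.63 CPM across all 12 libraries.

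Of the 6 cardiomyocyte markers, 1 was called lower (Tnnt2), and the sums were 49150 to 54280 CPM in the controls, 44600 CPM in iNICD 1, 45460 CPM in iNICD 3 and 45010 to 51880 CPM in the other iNICD libraries. The 5 erythroid markers held 53.1 to 233.3 CPM in the controls, 25.1 CPM in iNICD 1, 79.6 CPM in iNICD 3 and 25.8 to 131 CPM in the other iNICD libraries, the lowest of which was iNICD 2. None of the 5 smooth muscle and pericyte, 5 mesothelial or 5 Schwann cell markers was called, and iNICD 1 and 3 held 415 and 442.3, 179.9 and 223.4, and 51.3 and 53.4 CPM of them, against control ranges of 356.3 to 525.7, 209.5 to 278.4 and 53.9 to 70.8 CPM and ranges in the other iNICD libraries of 486.7 to 496.2, 134 to 259 and 53.9 to 60.2 CPM. The part of any cell type in the levels of the mitotic genes was not tested.

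Other genes of the cell cycle were counted in lists that do not share genes with the members. Of 48 tested other mitotic genes, 0 passed the adjusted p, with a median log2 fold change of 1.00. At an unadjusted p under 0.05, 25 were higher, against 8.37% of all tested genes. For 40 of these 48, iNICD 1 and 3 were the 2 highest libraries, against 2.48% of all tested genes. The median ratios of the list in iNICD 1 and 3 were 2.04 and 1.70 on the log2 scale. In this list Iqgap3, a scaffold of dividing cells, had the lowest adjusted p, 0.0514, and was named after its value was seen. Its level was 2.25 to 5.40 CPM in the controls and 5.60 to 13.8 CPM in the iNICD LA, so that the groups did not overlap. Every iNICD library exceeded every control for 2.1% of all tested genes.

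The 32 DNA replication genes had a median log2 fold change of 0.16, and 0 passed the adjusted p. The value was positive for 27, against 48.8% of all tested genes. For 11 of the 32, iNICD 1 and 3 were the 2 highest libraries, against 2.48% of all tested genes. The median log2 ratio of the 32 genes was 0.60 in iNICD 1 and 0.30 in iNICD 3, and the other iNICD libraries ran from -0.09 to 0.15. Both values were below those of the mitotic lists in the same libraries, and this difference was not tested.

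The regulators of mitotic transcription (23 tested genes) had a median log2 fold change of 0.09 and 0 called. The largest value was 0.96, for E2f1, at an adjusted p of 0.339 by edgeR. For 4 of the 23, iNICD 1 and 3 were the 2 highest libraries, against 2.48% of all tested genes. Among these regulators, FoxM1 and B-Myb drive many of the members. Foxm1 was at 1.34 to 3.69 CPM in the controls and at 7.25 and 5.82 CPM in iNICD 1 and 3, against 2.25 to 3.88 CPM in the other iNICD libraries. Mybl2, which encodes B-Myb, was at 0.0957 to 0.621 CPM in the controls and at 1.21 CPM in iNICD 1, 0.706 CPM in iNICD 2, 0.509 CPM in iNICD 3 and 0.328 to 0.584 CPM in iNICD 4 to 6, so that iNICD 1 and 2 exceeded the Mybl2 controls and iNICD 3 did not. Foxm1 and Mybl2 were picked for their known role, and their adjusted p was 0.449 and 0.416 by edgeR.

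The 8 G1 cyclins and their kinases had a median log2 fold change of -0.01, the 8 Cdk inhibitors 0.09, the 8 switch kinases and phosphatases of Cdk1 0.01 and the 17 subunits and regulators of the anaphase-promoting complex -0.04, with 0 called in each. Of 17 genes of the actomyosin ring and abscission, Chmp4c, an ESCRT-III subunit that delays abscission, was the only 1 called. Chmp4c was at 41.4 to 52.0 CPM in the controls and 59.3 to 80.4 CPM in the iNICD LA. All 6 iNICD libraries lay above all 6 controls, at a log2 fold change of 0.50 ± 0.08 and an adjusted p of 0.00424. Of all tested genes, 2.26% were called higher and 2.1% had every iNICD library above every control.

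**Figure D5:**
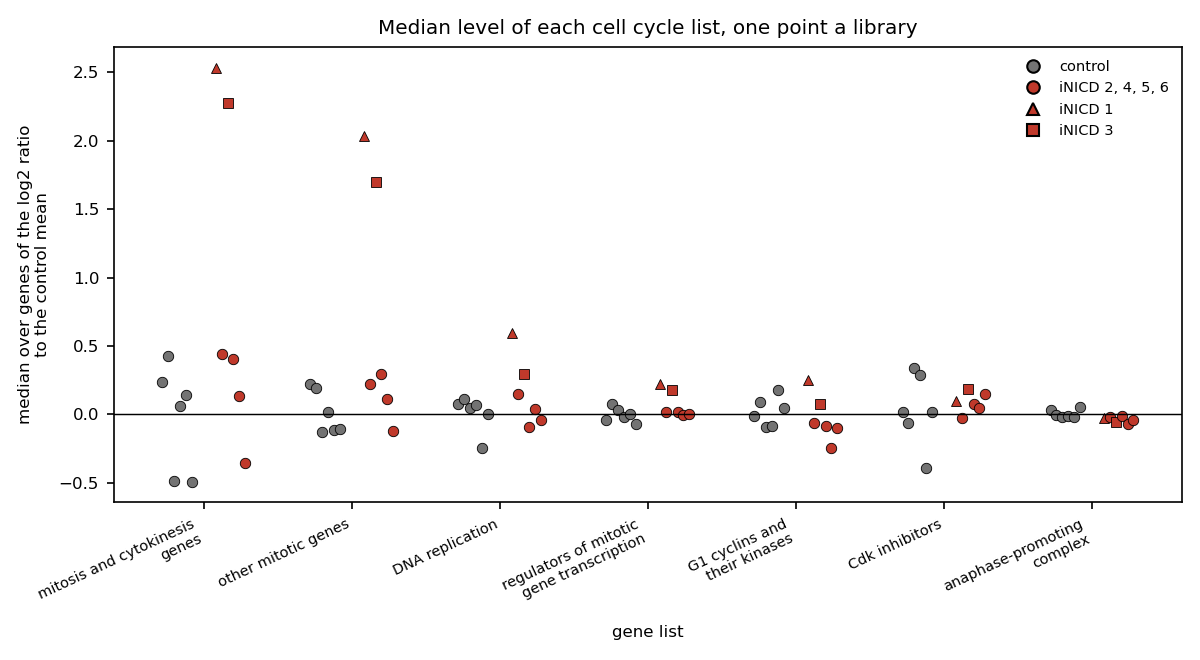
Median over the tested genes of each list of the log2 ratio to the control mean (y axis), 1 point for each LA library, for mitosis and cytokinesis genes and 6 other cell cycle lists (x axis). The points of iNICD 1 and 3 stand at 2.53 and 2.28 for the mitosis and cytokinesis genes and at 0.60 and 0.30 for DNA replication, and at 0.25 or lower in the remaining lists apart from the other mitotic genes.

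The members lie on 17 chromosomes, and 13 of the 43 share exon bases with a neighbouring gene in GENCODE M21. For 5 of them (Kif20a, Ube2c, Kif4, Ccna2 and Prc1) the shared portion was over 10% of exon bases, always with a gene on the opposite strand. The strand setting of the count was not given in the sources used here. How reads in the shared bases were assigned is therefore not known. For the comparison of both atria, the supplemental methods describe counts of unambiguous reads, so reads in shared bases may have been left out.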

How the data were processed

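Whole LA RNA was depleted of ribosomal RNA and sequenced as stranded single-end reads, 1 library per mouse, so p-values reflect the spread between mice. The authors deposited raw read counts per gene name, with a gene length in bases. The submitters' processing notes name cutadapt, STAR 2.4.2a, Subread featureCounts, edgeR and mm10, while the supplemental methods describe TopHat2 and HTSeq for LA and STAR with Subread for the comparison of both atria, and the strand setting of the counting was not given in the sources used here. The table held counts for 37 mitochondrial genes. Groups came from the sample titles.

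The members, gene lists and tests were chosen with earlier results of these data known. Genes averaging 0.1 CPM or more over all 12 libraries were tested with edgeR 4.0.16 (TMM, quasi-likelihood test, two-sided, Benjamini-Hochberg over all tested genes, threshold 0.05) in R 4.3.3. DESeq2 1.42.0 and the exact test of edgeR were alternatives, and the code was tested on simulated data. Normalized CPM used TMM-scaled library sizes, and log2 ratios a prior count of 2. Values per library were given for the 8 members of lowest p and the members of highest and lowest mean level in each role, and other members were given by fold change. Some further values (Cdk1, Top2a, Smc2, Hmmr, Nusap1) were added after they were seen. Replicate numbers were not taken to pair the samples. Counting limits precision at low levels. No 2 libraries of a group agreed within sampling noise. Right atrium and sorted nuclei were not analysed here.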

Additional observations from a re-analysis of the deposited data

Results flagged for a closer look

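Of 84 groups of 6 libraries examined (each tested member in each group), 1 had a library whose gap to the nearest other exceeded the 95% critical value of Dixon's ratio, and chance gives about 4.2. Ect2, the exchange factor that activates RhoA at the furrow, was at 1.83 normalized CPM in control 2, against 0.691 to 1.08 in the other 5 controls. The ratio is insensitive to a pair of high libraries in the same group, such as iNICD 1 and iNICD 3.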

How the results depend on the processing

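The number of members called higher was 0 in the edgeR quasi-likelihood test, 11 in DESeq2, 9 in the exact test of edgeR, 6 with sex as a covariate and 7 in females only, and it ranged from 0 to 1 when each library was left out in turn. The 1 was Cenpf, without iNICD 5 (1.85% of all tested genes) or iNICD 6 (1.83%). No member was called lower in any alternative. Their median log2 fold change was 1.39 and went to 0.12 with iNICD libraries 1 and 3 both left out, and leaving out each library in turn gave 0.97 to 1.59. Of all tested genes, 406 were higher, against 689 in DESeq2, 8 in males only and 231 without iNICD 1 and 3. The 180 lower genes became 450 in DESeq2, 297 in the exact test, 1 in males only, 46 without iNICD 1 and 3 and 95 to 292 when each library was left out, with the lowest value without iNICD 1 and the highest without control 5. The cell cycle lists held 1 called gene, against 9 in DESeq2, 6 in the exact test, 2 with the filter of more than 1 CPM in at least 6 libraries, 2 with filterByExpr, 4 with sex as a covariate, 3 in females only, 0 in males only and 1 to 2 when each library was left out, 2 being without control 5, iNICD 2 or iNICD 6. The cause of these shifts was not tested. A replicate block on the title numbers, or on the description numbers, gave 2 called genes in those lists and 0 called members, and 13 members higher at an unadjusted p under 0.05 (8.68% and 8.7% of all tested genes), against 33 without the block. That count was 16 of 24 tested members with the filter of more than 1 CPM (9.32%). Same-numbered samples had deviations correlated at -0.10 to 0.27 (titles) and -0.08 to 0.27 (descriptions), so the numbers were not taken as pairs. Of the fold changes of single members under each alternative, 1006 kept their direction and their side of the threshold, 35 passed it in addition and 28 changed sign without passing it. The log2 fold changes that went below 0 were, without iNICD 1 and 3, Ccnb1 -0.20, Ccnb2 -0.26, Cdk1 -0.025, Aurka -0.097, Cdca8 -0.36, Tpx2 -0.19, Ttk -0.99, Cenpa -0.059, Cenpe -0.040, Ndc80 -0.037, Cdc20 -0.17, Top2a -0.029, Smc4 -0.045 and Racgap1 -0.020. In males only they were Ccnb2 -0.13, Cdca8 -0.57, Tpx2 -0.049, Mki67 -0.040, Top2a -0.071, Smc4 -0.28, Tacc3 -0.15, Gtse1 -0.18 and Racgap1 -0.28. In females only Cenpa was at -0.028. When each library was left out, Cenpa ranged from -0.075 to 0.12, below 0 without control 3, control 5 or iNICD 1, and Ttk from -0.046 to 0.78, below 0 without iNICD 1. Members at a few reads per library are limited by depth.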
